A study of Mus musculus with 18 samples.

Results

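Heat shock proteins of the cytosol and the mitochondrion were examined through 10 genes, Hspa8, Hspa4, Hspa9, Hsp90aa1, Hsp90ab1, Hsph1, Dnaja1, Dnajb1, Hspd1 and Hspe1. A locus of the deposited count table was taken as a member when the gene symbols listed for it held 1 of these names. Each gene had 1 such locus, which gave 10 of the 52179 loci with a symbol. All 10 averaged 10 or more normalized counts across the 18 samples, as did 15579 loci altogether, and were tested.

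The samples came from Neuro2A, a mouse neuroblastoma cell line that grows as neuron-like cells. Cells were transfected with a biotinylated miR-92b mimic or with a biotinylated scrambled sequence (Scr), each at 25 nM, or were left untransfected (control). Lysates were made after 48 h from nuclei and from whole cells, RNA bound to the mimic was collected on streptavidin beads, and RNA with a poly(A) tail was sequenced. This gave 6 groups of 3 samples, nuclear control, nuclear Scr, nuclear miR-92b and the 3 matching whole cell groups, all of 1 cell line, and the sources do not say whether the 3 samples of a group were separate cultures, so the p-values measure the spread between these samples.

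Heat shock proteins are chaperones, which bind unfolded or partly folded proteins and help them to reach or keep their shape. HSP70 proteins bind short stretches of a client protein in cycles of ATP hydrolysis, J-domain proteins start the cycle, HSP110 proteins exchange the nucleotide, and HSP90 acts later on clients such as kinases and steroid receptors. HSP60 and HSP10 form the folding chamber of the mitochondrial matrix. Many of these genes are switched on by heat shock factor 1, which binds repeats of a short motif in their promoters, and most of the constitutive members are also abundant in unstressed neurons.

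The genes were placed on GRCm38 with GENCODE release M21. Hspa8, which encodes the constitutive cytosolic HSP70, lies on chromosome 9 (40800984 to 40810087, plus strand), Hspa4, an HSP110 protein, on chromosome 11 (53259814 to 53300457, minus strand) and Hsph1, which encodes HSP105, on chromosome 5 (149614287 to 149636376, minus strand). Hspa9, which encodes the mitochondrial HSP70 mortalin, lies on chromosome 18 (34937414 to 34954357, minus strand). The HSP90 genes Hsp90aa1 and Hsp90ab1 are on chromosomes 12 (110690605 to 110702728, minus strand) and 17 (45567775 to 45573271, minus strand). The J-domain genes Dnaja1 and Dnajb1 are on chromosomes 4 (40722150 to 40737149, plus strand) and 8 (83608193 to 83612653, plus strand). Hspd1 (HSP60) and Hspe1 (HSP10) lie head to head on chromosome 1, Hspd1 from 55077835 to 55088243 on the minus strand and Hspe1 from 55088132 to 55091307 on the plus strand, so that their annotated 5′ ends overlap.

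The value of a locus with several symbols cannot be divided between its genes, which applied to 3 of the 10 loci. The Hspa8 locus also holds the snoRNA genes Snord14c, Snord14d and Snord14e, the Hspa9 locus the snoRNA genes Gm22200 and Gm26109, and the Dnaja1 locus the microRNA gene Mir207. Processed pseudogenes can also draw reads from the parent gene. The 11 pseudogene loci named after Hspa9, Dnaja1, Hspd1 and Hspe1 held normalized counts of at most 17.6 in any sample. Only loci with a member's name and the suffix ps were searched, so pseudogenes under other names, of these or the other members, were not covered.

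The mimic carries the sequence of miR-92b, whose mature form in mouse RefSeq (GRCm38.p6, chr3:89227126-89227147, minus strand) is shown because its seed defines the sites searched in the members. Capitals mark the seed, bases 2 to 8 from the 5′ end, which 6 mature mouse miRNAs share (miR-92b-3p, miR-92a-3p, miR-25-3p, miR-32-5p, miR-363-3p and miR-367-3p).
miR-92b-3p: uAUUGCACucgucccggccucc

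A match to the full seed, GTGCAAT in the transcript, was present in the principal transcript of 5 members, and only in Dnaja1 did it lie in the 3′ UTR. The sites of Hspa8, Hspa4, Hsph1 and Hspd1 lie in coding sequence, and the transcripts of Hspa9, Hsp90aa1, Hsp90ab1, Dnajb1 and Hspe1 held none. Each site is shown with 10 or more bases on either side, on the strand of the transcript and with the match in capitals, and a match describes the sequence only.
Dnaja1, 3′ UTR, chr4:40733529-40733535: cccttctgctGTGCAATttttaagatat
Hspa8, coding, chr9:40804659-40804665: ttcttgacaaGTGCAATgaaatcatcag
Hspa4, coding, chr11:53272113-53272119: gctctgcagtGTGCAATtttatcacctg
Hsph1, coding, chr5:149627635-149627641: gcactgcagtGTGCAATtctttctccgg
Hspd1, coding, chr1:55078328-55078334: cctggaatggGTGCAATgggtggcatgg

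Promoter sequences of RefSeq (GRCm38.p6), from 250 bases before to 50 bases after a transcript start, covered 6 members with 11 starts, namely Hspd1, Hspe1, Dnaja1, Hsph1, Dnajb1 and Hspa4. The heat shock element was searched as a pair of facing units (GAANNTTC or TTCNNGAA, both of which read the same on either strand) and as 3 such units in a row, which contain the pair. A pair was present for 4 of the 6 genes, in 5 of their 11 promoters, and in 15.1% of all 32851 promoters. In contrast, 3 units in a row were present for 3 of the 6 genes (Hspd1, Hspe1 and Hsph1), in 4 of the 11 promoters, and in 0.603% of all promoters. These promoters do not all hold separate elements, since those of Hsph1 overlap and hold the same matches, and Hspd1 and Hspe1 share theirs. The windows of 30 bases that hold these matches are shown in the direction of the gene, with the matched units in capitals.
Hspe1, 89 bases before the start, chr1:55088053-55088082: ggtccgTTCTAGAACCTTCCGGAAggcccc
Hspd1, 144 bases before a start, chr1:55088053-55088082: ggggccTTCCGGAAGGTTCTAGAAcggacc
Hsph1, 36 bases after a start, chr5:149636287-149636316: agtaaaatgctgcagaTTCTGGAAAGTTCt
Hsph1, 33 bases before a start, chr5:149636351-149636380: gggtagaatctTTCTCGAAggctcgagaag
Dnaja1, 124 bases before a start, chr4:40722333-40722362: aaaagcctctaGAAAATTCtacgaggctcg

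The windows of Hspe1 and Hspd1 are the same bases read from opposite strands. They precede the Hspe1 start and 1 of the 2 RefSeq starts of Hspd1, while the promoter of the other Hspd1 start, which lies farther to the right, held no pair, and for that start the element lies inside the gene. The promoters of Dnajb1 and Hspa4 held no pair in this window, which says only that these letters are absent from it.

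Each sample had between 3752991 and 22920038 reads at loci with a symbol, and the member loci held between 71 (Hspe1) and 44250 (Hsp90ab1) reads in a sample. Among 12 markers of neuroblastoma or neurons, 9 averaged 10 or more normalized counts, among them Phox2a, Hand2, Gata3, Dbh and Th, while Nefl was at 0. The summed normalized count of 6 nuclear RNAs (Malat1, Neat1, Meg3, Miat, Kcnq1ot1 and Snhg11) was 117528 to 150215 in nuclear and 32720 to 85155 in whole cell samples. Astrocyte, oligodendrocyte, leukocyte, fibroblast and endothelial markers summed to at most 75.7, 239, 50.6, 90.5 and 126 in any sample. Whole cell miR-92b sample 3 stood apart, with the lowest sum of nuclear RNAs (32720, against 55691 to 85155 in the other 8 whole cell samples), and nuclear Scr samples 2 and 3 stood apart in members given below. Where a member's value moved with these samples, the value without them is given beside it or in the closing section.

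Different genes were compared on the scale of the deposited FPKM values (fragments scaled by transcript length and by mapped fragments). Scr and miR-92b samples held RNA collected on beads, so these means describe the sequenced RNA and not levels in cells or nuclei. In whole cell samples Hspa8 had the highest mean FPKM, 836 ± 469 (SD, n = 9), followed by Hsp90ab1 with 648 ± 221 (SD, n = 9). The other members were lower, with Hspa9 at 123 ± 14.3 and Hspe1, Hsp90aa1 and Hspd1 at 78.4 ± 41.7, 78.1 ± 25.5 and 74.4 ± 12.1 (SD, n = 9 each). The ranges of Hspa8 (465 to 1998) and Hsp90ab1 (430 to 1162) overlapped with each other and lay above the range of Hspa9 (98.6 to 149). Within each whole cell sample, Hspa8 was higher than Hsp90ab1.

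The lower part of the whole cell order held Hspa4 with 37.2 ± 8.04, Hsph1 with 34.4 ± 4.51, Dnaja1 with 31.0 ± 9.60 and Dnajb1 with 12.5 ± 3.63 FPKM (SD, n = 9 each). Hspa4, Hsph1 and Dnaja1 could not be ordered, since their ranges overlapped and their order changed between samples. The range of Dnajb1 (9.63 to 21.4) reached into that of Dnaja1 (19.2 to 47.7), but Dnaja1 was higher within each whole cell sample. Hspe1, Hsp90aa1 and Hspd1 likewise did not differ beyond their spread.

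The nuclear order was different. Hspa8 (104 ± 62.0), Hspa9 (99.7 ± 17.99) and Hsp90ab1 (94.1 ± 28.7 FPKM, SD, n = 9 each) had the highest means with overlapping ranges, so that Hspa9, the mitochondrial HSP70, stood level with the most abundant cytosolic chaperones. Hsp90aa1 followed with 53.1 ± 27.2, Hspd1 with 39.6 ± 8.34, Hsph1 with 28.3 ± 11.6, Dnaja1 with 27.1 ± 5.00 and Hspa4 with 21.2 ± 4.51 FPKM. Hspe1 was in position 9 of 10 with 11.3 ± 4.46 FPKM, against position 4 in whole cell samples, and Dnajb1 was lowest with 6.07 ± 1.26 FPKM. The gap of Hspe1 between compartments was smaller in mean normalized counts (3.17-fold) than in FPKM, and why the scales differ was not tested.

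**Figure D1:**
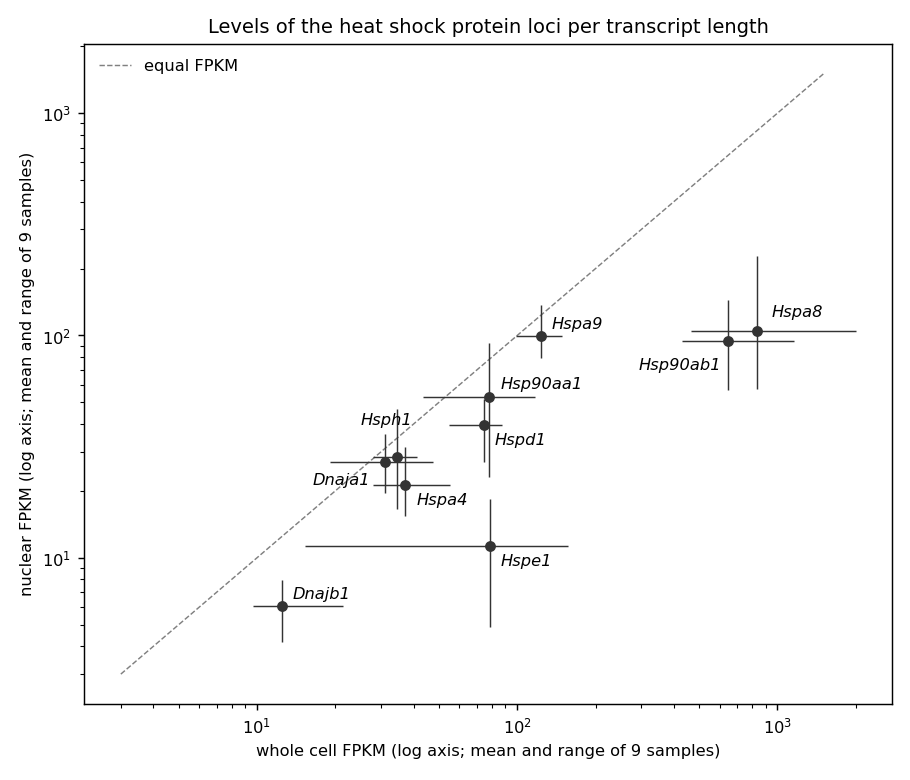
Mean FPKM of each heat shock protein locus in 9 whole cell samples (x axis, log scale) against 9 nuclear samples (y axis, log scale), with bars from the lowest to the highest sample and a dashed line at equal FPKM. Hspa8 and Hsp90ab1 lie farthest to the right and below the line, at 836 and 648 in whole cell and 104 and 94.1 in nuclear samples, while Hspa9 (123 and 99.7) lies near the line.

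Nuclear samples were compared with whole cell samples over the 3 treatments, of which Scr and miR-92b held RNA collected on beads. In those samples, retention in the nucleus and yield on the beads cannot be told apart. The study's methods do not state whether lysates of untransfected cells were also put on beads, so the same may hold for control. Transcripts of 7 of the 10 members were lower in nuclear samples and those of 0 were higher, while over all loci 15.8% were lower and 15.3% were higher (limma on log2(normalized count + 1), adjusted p-value below 0.05). The share over all loci depends on the filter, since at a mean of at least 50 normalized counts 2384 of 10571 loci were lower and 2151 higher. The difference ranged from 7.64-fold for Hspa8 to 1.03-fold for Hspa9 in the mean normalized count, and the median log2 fold change was -0.87 over the members and 0.14 over all loci. Normalized counts are relative to the reads of a sample, so less of a transcript per nucleus and more of other RNA cannot be told apart, and in such bulk samples neither can fewer cells of a type and less RNA per cell.

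**Figure D2:**
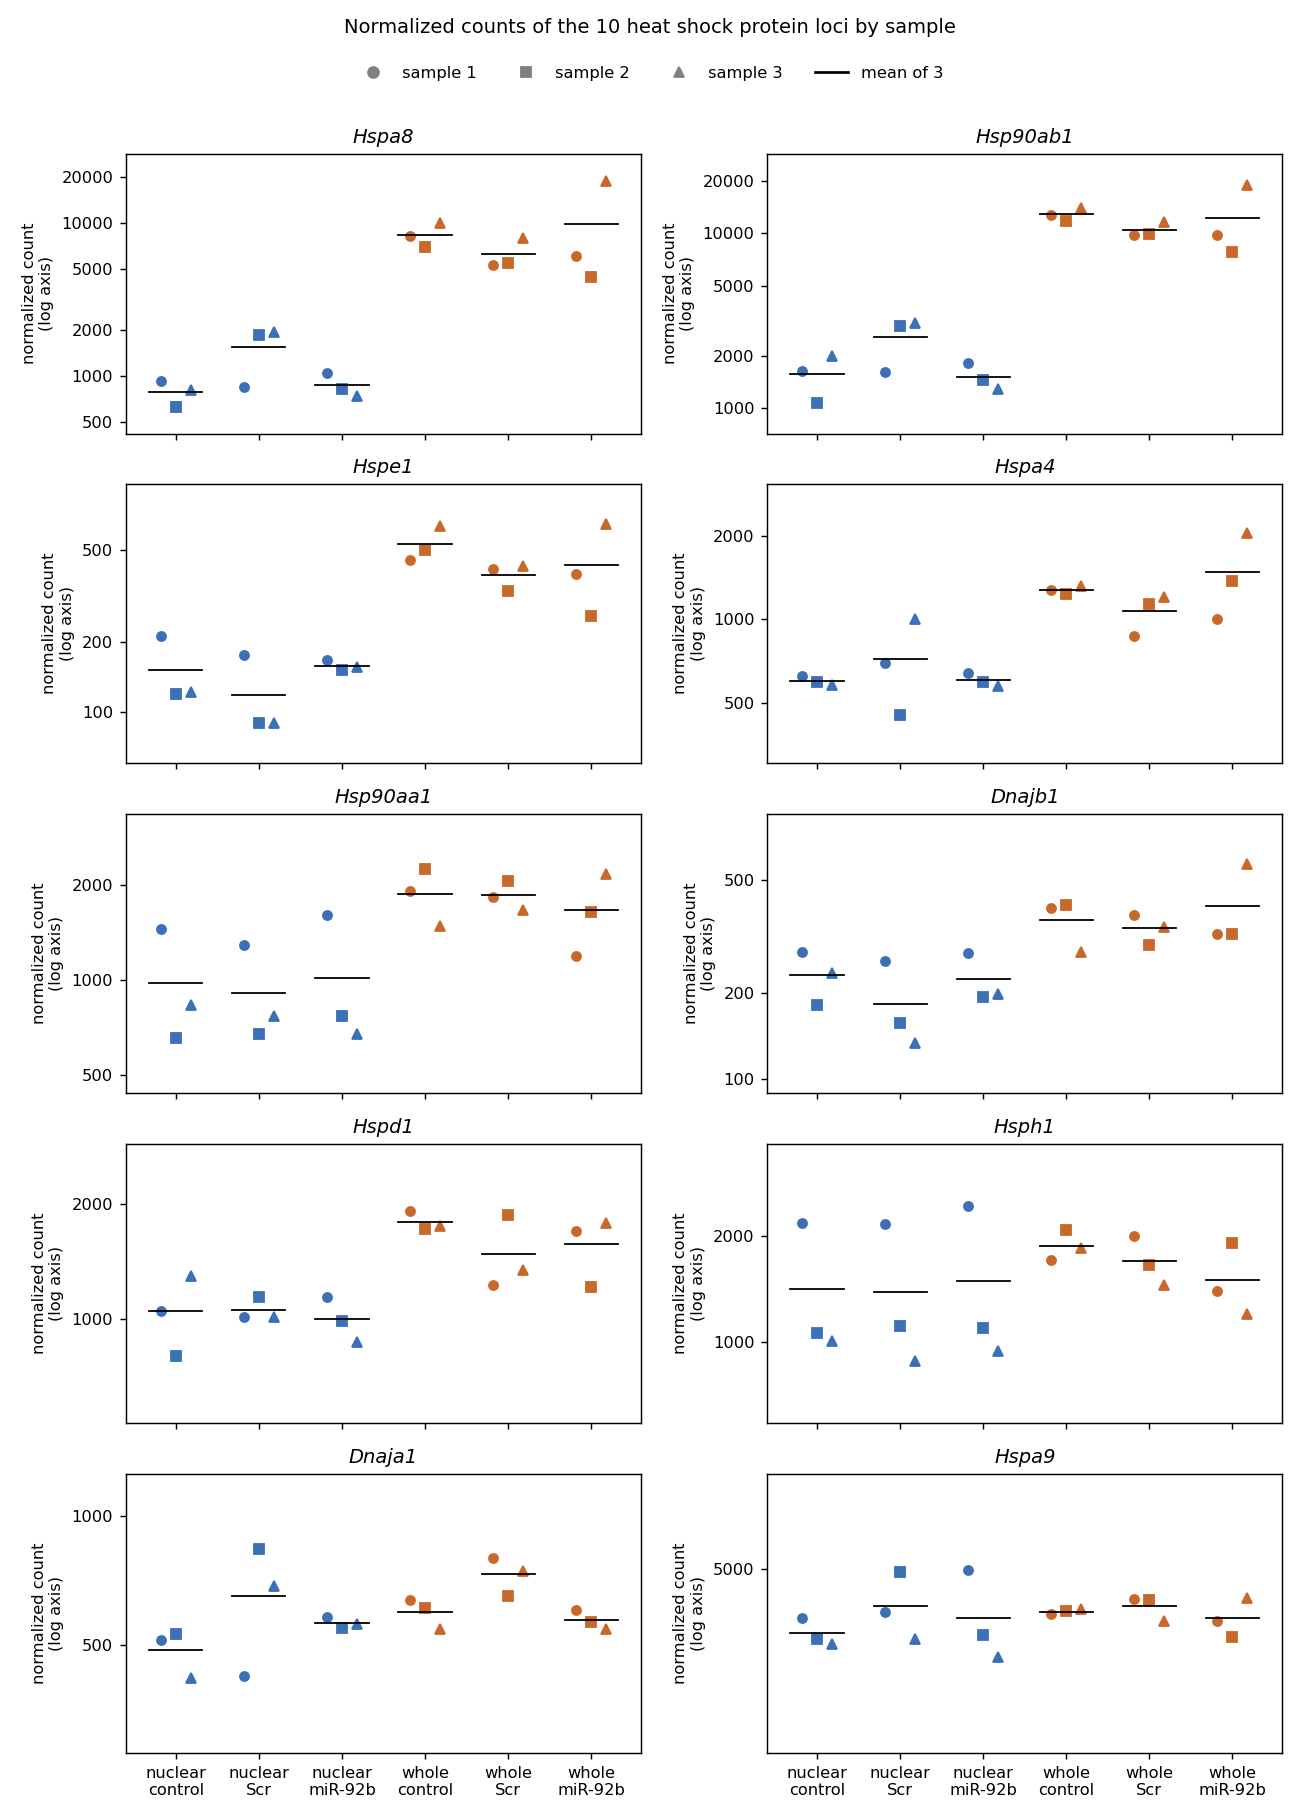
Normalized count of each member locus (y axis, log scale) in the 6 groups (x axis), with 1 point per sample, its shape giving the sample number, and a line at the mean of 3. All 9 nuclear samples (blue) lie below all 9 whole cell samples (orange) for Hspa8, Hsp90ab1, Hspe1 and Dnajb1, and the 2 sets overlap for the other members.

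Among the HSP70 genes, Hspa8 had 923, 627 and 807 normalized counts in nuclear control samples 1, 2 and 3, 836, 1859 and 1945 in nuclear Scr samples and 1042, 823 and 734 in nuclear miR-92b samples. Its whole cell counts were 8179, 6941 and 9983 in control, 5311, 5442 and 8014 with Scr and 6074, 4405 and 18955 with miR-92b. No nuclear sample reached the lowest whole cell sample, although nuclear Scr samples 2 and 3 stood above the other 7 nuclear samples and whole cell miR-92b sample 3 stood far above the rest. The log2 fold change of nuclear over whole cell was -2.91 (SE 0.21, limma adjusted p = 4.15e-10), and -2.96 without these 3 samples.

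Hspa9 gave a different picture from its cytosolic relative. It had between 3454 and 4972 normalized counts in nuclear samples (median 3786, n = 9) and between 3751 and 4431 in whole cell samples (median 4182, n = 9), so the whole cell range lay within the nuclear range. The log2 fold change was -0.05 (95% confidence interval -0.25 to 0.15, limma adjusted p = 0.715), and its sign turned (0.037) when samples were scaled to the same median. The intervals of Hspa8 (-3.34 to -2.47) and Hspa9 were far apart.

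The HSP110 genes Hspa4 and Hsph1, which serve as nucleotide exchange factors of HSP70, were not alike in rank. Hspa4 had between 453 and 1003 normalized counts in nuclear (median 594) and between 869 and 2051 in whole cell samples (median 1229, n = 9 each), and fell by 0.98 on the log2 scale (SE 0.14, limma adjusted p = 1.31e-05). Only nuclear Scr sample 3, at 1003, reached into the whole cell range, where whole cell Scr sample 1 was lowest at 869. Hsph1 had between 885 and 2433 in nuclear (median 1097) and between 1205 and 2082 in whole cell samples (median 1713), with a log2 fold change of -0.34 (SE 0.19, limma adjusted p = 0.182). The highest 3 nuclear values of Hsph1 all came from samples numbered 1, and without the samples numbered 1 of both compartments the log2 fold change was -0.71 (limma adjusted p = 0.00377, over all alternatives 0.00377 to 0.637).

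Both HSP90 genes fell in nuclear samples. Hsp90ab1, which encodes the constitutive HSP90 beta, had 1623, 1076 and 1989 normalized counts in nuclear control samples, 1609, 2960 and 3050 with Scr and 1821, 1451 and 1280 with miR-92b. In whole cells it had 12690, 11812 and 13908 in control, 9738, 9868 and 11589 with Scr and 9799, 7792 and 18957 with miR-92b. The pattern over samples resembled that of Hspa8, with nuclear Scr samples 2 and 3 and whole cell miR-92b sample 3 high within their sets.

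The log2 fold change of Hsp90ab1 was -2.69 (SE 0.16, 95% confidence interval -3.02 to -2.36, limma adjusted p = 5.16e-11) and -2.77 without these 3 samples. Hsp90aa1, the inducible HSP90 alpha, had between 656 and 1606 normalized counts in nuclear (median 769) and between 1194 and 2239 in whole cell samples (median 1828), and its sets overlapped through the 3 nuclear samples numbered 1. Its log2 fold change was -0.95 (SE 0.18, 95% confidence interval -1.32 to -0.58, limma adjusted p = 0.000271), an interval that did not overlap with that of Hsp90ab1. With FPKM in place of normalized counts it was -0.66 (adjusted p = 0.106, over all alternatives 2.68e-05 to 0.106).

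Of the J-domain genes, which deliver clients to HSP70, Dnajb1 fell and Dnaja1 did not pass the test. Dnajb1 had between 134 and 279 normalized counts in nuclear (median 199) and between 280 and 567 in whole cell samples (median 341, n = 9 each), and its log2 fold change was -0.79 (SE 0.18, limma adjusted p = 0.00147). The sets of Dnajb1 met almost edge to edge, since nuclear control sample 1 held 279 and whole cell control sample 3 held 280. Dnaja1 had between 419 and 838 in nuclear (median 549) and between 545 and 800 in whole cell samples (median 610), with a log2 fold change of -0.18 (SE 0.13, limma adjusted p = 0.287). Without whole cell miR-92b sample 3 and nuclear Scr samples 2 and 3 it was -0.38 (adjusted p = 0.0149, over all alternatives 0.0149 to 0.810).

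The genes of the mitochondrial folding chamber both fell, by different amounts. Hspe1 had 212, 120 and 122 normalized counts in nuclear control samples, 175, 89.8 and 89.5 with Scr and 167, 151 and 157 with miR-92b. In whole cells it had 454, 499 and 638 in control, 413, 332 and 427 with Scr and 393, 260 and 646 with miR-92b, so the sets did not overlap. Its log2 fold change was -1.66 (SE 0.20, limma adjusted p = 9.17e-07).

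Hspd1 had between 801 and 1296 normalized counts in nuclear (median 1012) and between 1217 and 1916 in whole cell samples (median 1722, n = 9 each), and only nuclear control sample 3 reached into the whole cell range. Its log2 fold change was -0.64 (SE 0.12, limma adjusted p = 0.000212). The interval of Hspd1 (-0.88 to -0.39) did not overlap with that of Hspe1 (-2.07 to -1.25). Reads of the overlapping 5′ ends can be divided between these genes by strand, and how reads were counted by strand is not given in the sources used here.

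All 9 nuclear samples lay below all 9 whole cell samples for 4 of the 10 members, Hspa8, Hsp90ab1, Hspe1 and Dnajb1, against 4.4% of all loci. Among the members, the log2 fold change rank-correlated with the length of the 3′ UTR of the principal transcript (Spearman's rho 0.61, n = 10 genes), with transcript length (0.56) and with the span of the gene (0.52), and less with the number of exons (0.29) or the coding length (0.03). These are descriptions over 10 genes measured in the same samples. The 3′ UTR has 86 nucleotides in Hspa8, 190 in Hspe1 and 243 in Hsp90ab1, and 905 in Hspa9, 966 in Hsph1 and 4206 in Dnaja1. Dnajb1 (1837) and Hspa4 (1801), with the longest 3′ UTRs after Dnaja1, went against this order, with log2 fold changes of -0.79 and -0.98.

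**Figure D3:**
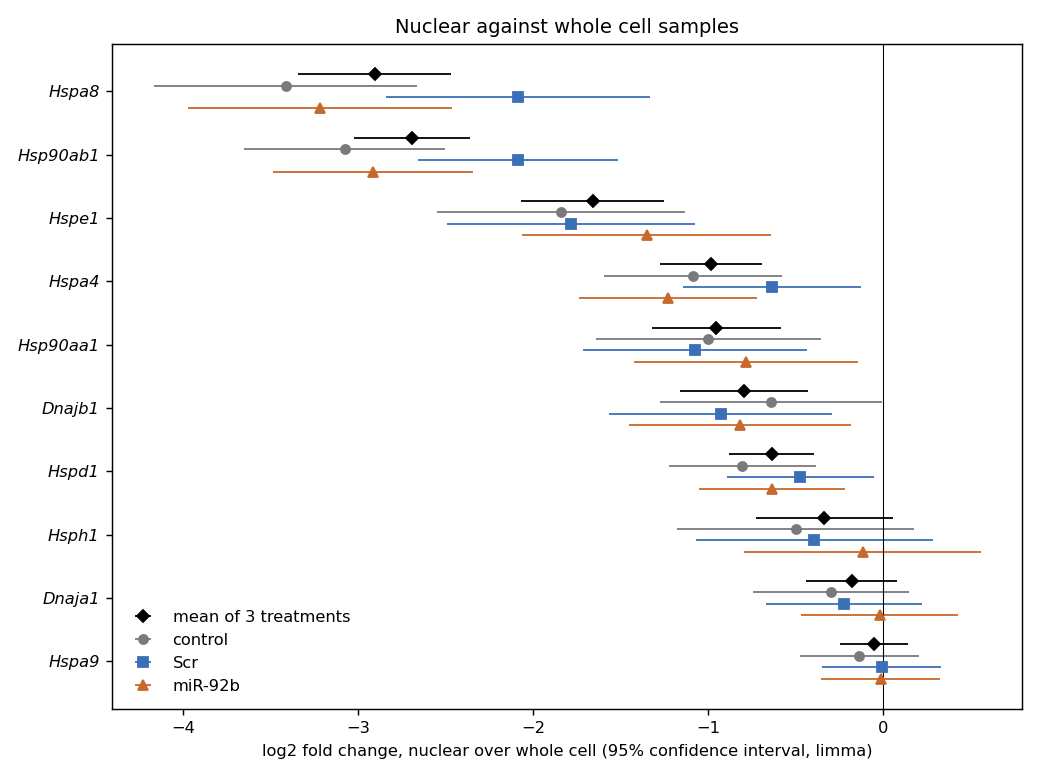
Log2 fold change of nuclear over whole cell samples (x axis) for each member (y axis), with 95% confidence intervals from limma, as the mean of the 3 treatments (black) and within control (grey), Scr (blue) and miR-92b (orange). The means run from -2.91 for Hspa8 to -0.05 for Hspa9, and for Hspa8 and Hsp90ab1 the Scr values (-2.09 both) lie to the right of control (-3.41 and -3.08).

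Within a single treatment, 6 members were lower in nuclear control samples (6.91% of all loci), 4 with Scr (3.7%) and 5 with miR-92b (6.63%), and none was higher. Hspa8, Hsp90ab1 and Hspe1 were lower in all 3 treatments, Hsp90aa1 in control and Scr, and Hspa4 and Hspd1 in control and miR-92b. For Hspa8 the log2 fold change was -3.41 in control, -2.09 with Scr and -3.22 with miR-92b (SE 0.36 each). The difference among treatments did not pass the test for any member (limma F-test, 0 of 10, and 0% of all loci, with 695 loci at an unadjusted p below 0.05), and edgeR and DESeq2 called 0 members. Before adjustment Hspa8 and Hsp90ab1 were below 0.05, and after it their limma adjusted p was 0.962.

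As a group, the members took 0.162% to 0.253% of the reads in nuclear samples (median 0.221%) and 0.397% to 0.762% in whole cell samples (median 0.513%, n = 9 each). The division among them also differed. Hspa8 and Hsp90ab1 together held 18.2% to 37.5% of the members' reads in nuclear samples and 52.5% to 73.9% in whole cell samples, with no overlap.

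Whether miR-92b collected transcripts of heat shock proteins was asked by comparing miR-92b with Scr in each compartment. In nuclear samples 0 of 10 members passed the test (limma, 0% of all loci, with 687 loci at an unadjusted p below 0.05, and 49 loci called without nuclear Scr sample 1), and in whole cell samples 0 of 10 (0.00642% of all loci, with 1515 at an unadjusted p below 0.05). edgeR and DESeq2 on the recovered reads called 0 members in either compartment. Before adjustment, 2 members were below 0.05 in nuclear samples, Hsp90ab1 (log2 fold change -0.70, SE 0.28, limma adjusted p = 1) and Hspa8 (-0.75, SE 0.36, limma adjusted p = 1), and 0 in whole cell samples.

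These values depend on which nuclear Scr samples are used. Samples 2 and 3 held 1859 and 1945 normalized counts for Hspa8 and 2960 and 3050 for Hsp90ab1, against 836 and 1609 in sample 1. With Scr samples 2 and 3 and whole cell miR-92b sample 3 left out, Scr sample 1 stood alone and was assumed to vary like the other groups. Against that sample only, the nuclear log2 fold change was -0.10 for Hsp90ab1 and 0.035 for Hspa8. Reads fell at 14928 and 15092 loci with a symbol in Scr samples 2 and 3, against 15732 to 21421 in the other 7 nuclear samples. Which Scr samples are typical was not tested. Scr samples 2 and 3 were also low in Hspe1 (89.8 and 89.5, against 120 to 212 in the other 7 nuclear samples) and low in Dnajb1 (158 and 134, against 182 to 279). Against nuclear control, Scr samples gave log2 fold changes of 0.90 for Hspa8 and 0.69 for Hsp90ab1 (limma adjusted p = 0.838 for both).

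In whole cells the miR-92b group was spread widely for the same genes. Hspa8 had a log2 fold change of 0.38 with miR-92b over Scr (SE 0.36, limma adjusted p = 0.771), and -0.25 without whole cell miR-92b sample 3. For Hsp90ab1 the values were 0.13 (SE 0.28) and -0.25, and for Hspe1 0.06 (SE 0.34) and -0.28. Hspa4 gave 0.42 (SE 0.25, 95% confidence interval -0.09 to 0.93, limma adjusted p = 0.596), and 0.15 without that sample, whose count of 2051 stood above the other whole cell samples (869 to 1377). Hsp90aa1 gave -0.19 (SE 0.31) and -0.40, and Dnajb1 0.21 (SE 0.31) and -0.060.

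Dnaja1, the member with a seed match in the 3′ UTR, had 800, 651 and 746 normalized counts in whole cell Scr samples and 603, 567 and 545 in whole cell miR-92b samples. It was the only member whose groups did not overlap in either compartment, and over all loci the groups stood apart for 8.92% in whole cell and 10.1% in nuclear samples. The log2 fold change was -0.35 (SE 0.22, 95% confidence interval -0.80 to 0.09, limma adjusted p = 0.614), and 0.18 on the FPKM scale. The whole cell control samples held 636, 610 and 546 and overlapped with those of miR-92b. In nuclear samples Dnaja1 held 583, 549 and 559 with miR-92b, within the range of Scr (424, 838 and 689).

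For miR-92b relative to Scr, the nuclear log2 fold changes were -0.75 (Hspa8), -0.18 (Hspa4), 0.08 (Hsph1) and -0.08 (Hspd1), and the whole cell values 0.38, 0.42, -0.19 and 0.08. The 5 members without a match covered a similar span in nuclear samples, with -0.70 for Hsp90ab1, -0.08 for Hspa9, 0.10 for Hsp90aa1, 0.32 for Dnajb1 and 0.49 for Hspe1 (SE 0.34). Their whole cell values were 0.13, -0.07, -0.19, 0.21 and 0.06 in the same order. Members with and without a match thus overlapped in both compartments, and none passed the test.

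**Figure D4:**
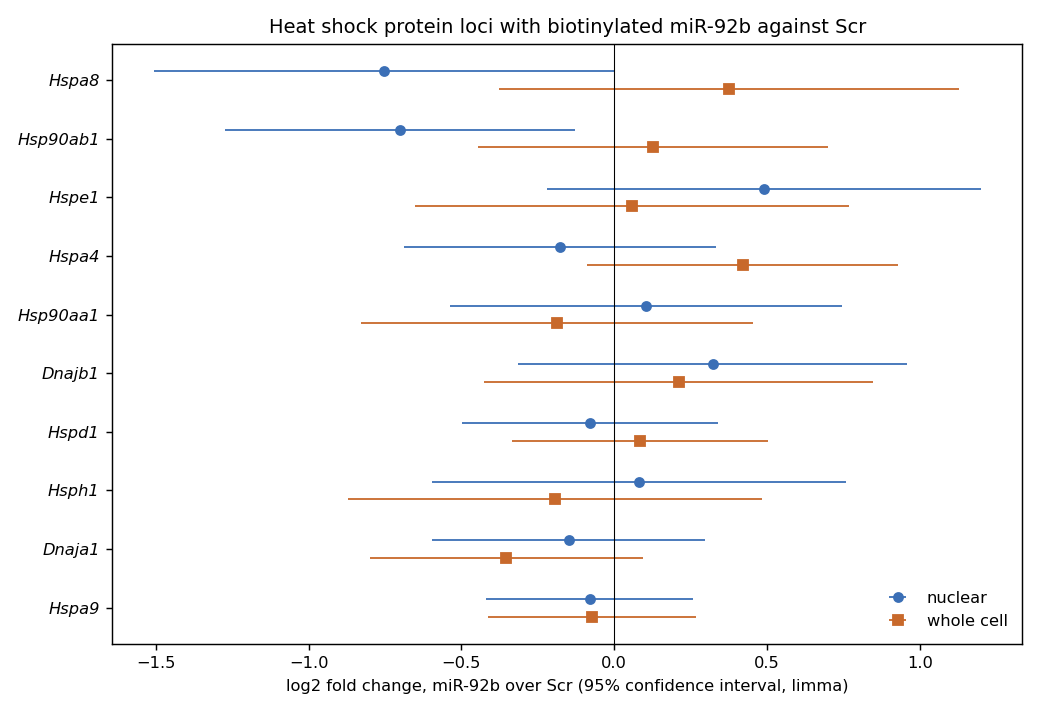
Log2 fold change between miR-92b and Scr samples (x axis) for each member (y axis) in nuclear (blue circles) and whole cell samples (orange squares), with 95% confidence intervals from limma. Nearly all intervals include 0, the exceptions being nuclear Hsp90ab1 (-1.27 to -0.13) and nuclear Hspa8 (-1.51 to -0.00094), neither past the threshold after adjustment.

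The effect of miR-92b over Scr did not pass the test of a difference between compartments for any member (limma, 0 of 10, and 0.00642% of all loci, with 1123 loci at an unadjusted p below 0.05). The largest differences were -1.13 for Hspa8 (SE 0.52) and -0.83 for Hsp90ab1 (SE 0.39, limma adjusted p = 0.683 for both). Untransfected cells served as a further reference, although the study's methods do not state whether their lysates were put on beads. Against control, limma called 0 members with miR-92b in nuclear (0% of all loci) or whole cell samples (0.00642%) and 0 with Scr in nuclear (0%) or whole cell samples (0%), and edgeR and DESeq2 called 0. Over all loci, 50, 731, 916 and 793 had an unadjusted p below 0.05 in these 4 comparisons, which share their control samples with each other and their miR-92b or Scr samples with the comparisons above. The miR-92b log2 fold changes over control ran from -0.05 to 0.21 in nuclear and from -0.38 to 0.15 in whole cell samples.

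Between nuclear samples of different treatment, the sample number set some members apart more than the treatment did, a pattern that was chosen for description after the values were seen. Hsph1 had 2175, 2160 and 2433 normalized counts in nuclear control, Scr and miR-92b samples numbered 1, and 885 to 1114 in the 6 nuclear samples numbered 2 or 3. Hsp90aa1 had 1453, 1290 and 1606 in the samples numbered 1 and 656 to 835 in the other 6. In both genes every sample numbered 1 thus held more than every other nuclear sample, with ratios of the means of 2.21 and 1.99.

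Dnajb1 (259 to 279 against 134 to 236, ratio 1.48) and Hspe1 (167 to 212 against 89.5 to 157, ratio 1.52) showed the same order. For 4 of 10 members all 3 nuclear samples numbered 1 lay above the other 6, against 3.04% of all loci. In whole cell samples this was so for 0 of 10 members, and Hsph1 there held 1397 to 2001 in the samples numbered 1 and 1205 to 2082 in the other 6. Hspa8, Hsp90ab1, Hspa4, Hspd1, Dnaja1 and Hspa9 had overlapping values in nuclear samples, with ratios between 0.82 and 1.13. The sources used here do not say what the sample number stands for, and its part in the compartment difference of Hsph1 and Hsp90aa1 is shown above by the values without these samples. For Hsp90aa1 that value was -1.35 (limma adjusted p = 6.09e-05).

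**Figure D5:**
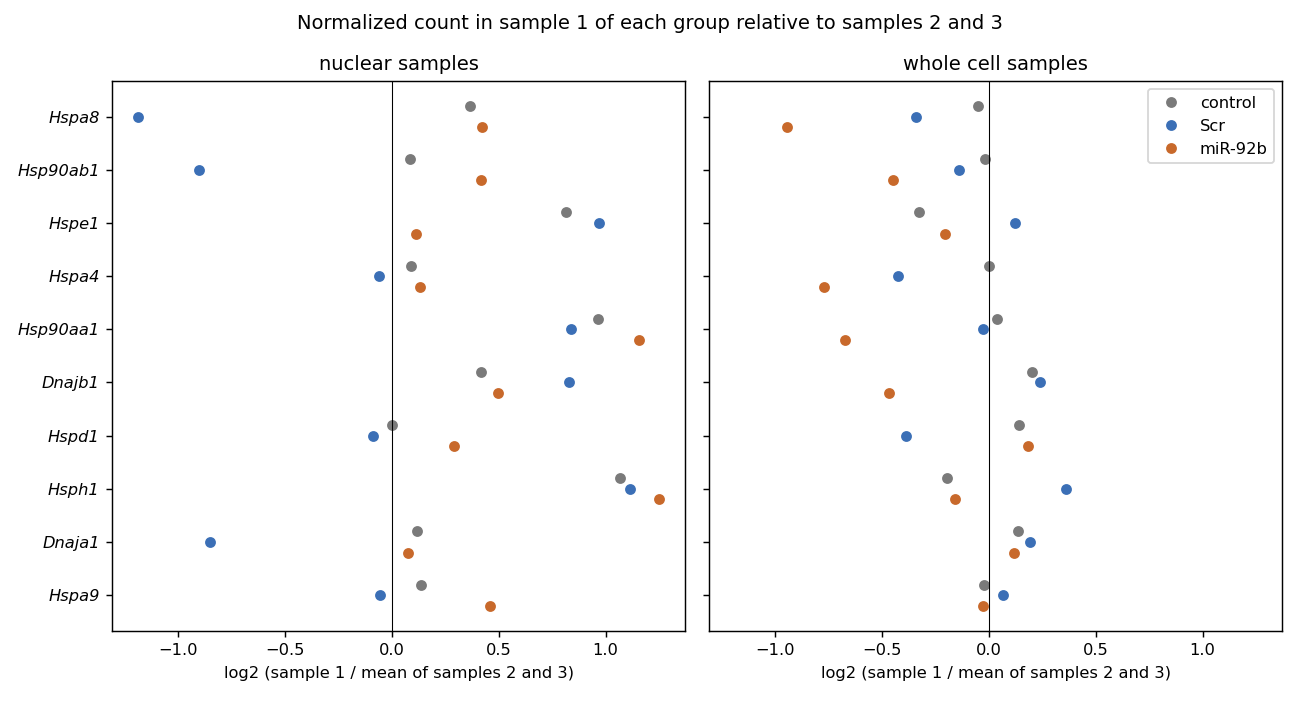
Log2 ratio of the normalized count in sample 1 to the mean of samples 2 and 3 of the same group (x axis) for each member (y axis), in nuclear (left) and whole cell samples (right), with 1 point per treatment. In nuclear samples sample 1 held 2.10 to 2.38 times the mean of the other 2 for Hsph1 and 1.79 to 2.23 times for Hsp90aa1, and in whole cell samples the points of these genes lie on both sides of 0.

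Of the stress-inducible genes, Hspa1a, Hspa1b and Hspb1 were close to the limit of detection. The inducible member Hsp90aa1 was not, with 656 to 2239 normalized counts. Hspa1a, the inducible HSP70, was at 0 in 17 of the 18 samples and at 8.10 normalized counts in whole cell miR-92b sample 1. Hspa1b ranged from 0 to 46.5, and the small heat shock protein Hspb1 from 0 to 26.8 over its 2 loci. None of the loci of Hspa1a, Hspa1b and Hspb1 reached the mean for testing. Hsf1, which encodes heat shock factor 1, had 382 to 677 normalized counts in nuclear and 464 to 810 in whole cell samples, with a log2 fold change of -0.12 (SE 0.13, limma adjusted p = 0.526).

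Other chaperone families were described from lists of genes, beside the 15.8% of loci that were lower and the 15.3% that were higher in nuclear samples. The list of TRiC, the cytosolic folding chamber for actin and tubulin, and prefoldin, which delivers clients to it, came closest to the members. It had 9 of 15 tested loci lower, 1 higher and a median log2 fold change of -0.67. All tested loci of TRiC subunits were lower, while most prefoldin loci did not pass the test. Cct2 had 971 ± 130 normalized counts in nuclear and 2724 ± 823 in whole cell samples (SD, n = 9 each), a log2 fold change of -1.45 (SE 0.13, limma adjusted p = 1.65e-08). The loci of Tcp1 (-1.25), which also holds Gm26130 and Snora20, and of Cct4 (-0.73), which also holds Fam161a and Gm12059, fell as well. Of 2 loci named Pfdn1, 1 rose by 2.01, from 32.9 ± 25.3 normalized counts in whole cell to 84.0 ± 22.5 in nuclear samples, and the other did not pass the test (log2 fold change -0.43).

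HSP90 co-chaperones, together with the reticulum HSP90 gene Hsp90b1, had 10 of 19 loci lower and 3 higher (median -0.49). Ptges3, which encodes the co-chaperone p23, fell by 1.56 (SE 0.15, limma adjusted p = 2.48e-08), from 1905 ± 605 in whole cell to 635 ± 117 normalized counts in nuclear samples (SD, n = 9 each). Fkbp4, an immunophilin of steroid receptor complexes, fell by 1.23 (SE 0.14, limma adjusted p = 4.44e-07), and the locus that joins Hsp90b1 with Gm15344 and Gm25745 by 0.30. In contrast, Ppid (0.54), Cdc37l1 (0.59) and Chordc1 (0.54) rose in nuclear samples, with 937, 888 and 574 normalized counts against 647, 601 and 402 in whole cells.

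Further J-domain genes had 9 of 31 loci lower and 5 higher (median -0.37). Dnajc1 (0.56) and Dnajc10 (0.76) rose in nuclear samples. Dnajc5, which encodes the synaptic vesicle protein CSP alpha, fell by 0.46, Dnajc13 by 0.34 and Dnaja2, a close relative of Dnaja1, by 0.42.

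The remaining HSP70, HSP110 and nucleotide exchange factor genes had 3 of 13 loci lower and 0 higher (median -0.19), namely Bag6 (log2 fold change -0.49), Hspa13 (-0.80) and Bag1 (-2.79). Bag1 had few reads, with 24.8 ± 17.5 normalized counts in nuclear and 146 ± 64.8 in whole cell samples. Mitochondrial chaperones and proteases had 1 of 16 loci lower and 1 higher (median -0.09), namely Pitrm1, a peptidase of the matrix, which fell by 0.37, and Dnajc19, a subunit of the import motor, which rose by 0.75. Among heat shock factors and small heat shock proteins, 3 of 8 loci were lower and 1 higher (median -0.45), namely Hsbp1 (-0.94), Hspb8 (-0.62) and Cryab (-2.82), which had few reads, and Hsf2 (0.32). With miR-92b against Scr, 0 loci of these 6 lists were called by limma in either compartment.

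The loci whose log2 normalized count followed the mean of the members most closely over the 18 samples were Pgam1 (Pearson's r = 0.99), Fth1 (0.98), Aldoa (0.98), Cct2 (0.98) and the joined locus of Tpi1 and Usp5 (0.97), out of 8269 loci that averaged 100 or more normalized counts. Pgam1, Aldoa and Tpi1 encode glycolytic enzymes and Fth1 the heavy chain of ferritin. The correlations are a description over nuclear and whole cell samples together, 2 sets with different levels of these transcripts. Pgam1 averaged 717 normalized counts in nuclear samples against 2897 in whole cells, Fth1 253 against 1115, and Aldoa 1834 against 6875.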

How the data were processed

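RNA collected with biotinylated miR-92b or Scr, and RNA of untransfected cells, was sequenced by the authors from oligo-dT selected, stranded libraries. Per the labels and the submitters' processing notes, reads passed through bcl2fastq 2.17, Trimmomatic 0.30, TopHat2 and Cufflinks on mm10. Normalized counts, as deposited, are a signal: each sample's reads were divided by its own size factor. The deposited FPKM are relative to transcript length and mapped fragments. The authors' comparison tables (fold changes, p-values) were not used.

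All 635205 values above 0 were whole multiples of 1 read (100% within 0.02 reads), so reads were recovered for edgeR 4.0.16 and DESeq2 1.42.0. The main test was limma 3.58.1 (R 4.3.3) on log2(normalized count + 1) with the variance allowed to follow the mean, all 6 groups in 1 model, two-sided, with Benjamini-Hochberg adjustment over 15579 loci with a symbol and a mean of at least 10. Loci without a symbol, 4.51% to 15.3% of reads, were left out. The log2 scale understates changes of low loci. Code was tested on simulated counts in which 200 of 15579 loci changed by 2 on the log2 scale. The main test recovered 137 for nuclear against whole cell, with 15 false calls. For miR-92b against Scr in nuclear samples it recovered 100, with 5 false calls, so a locus that was not called may still differ. Alternatives changed the pseudocount, filter, unit, scaling, samples in the model, weights, block and tool, and left out each sample. With 3 samples a group, an exact permutation test cannot go below 0.1.

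Beside the members, at most 3 loci per direction and list with the highest means among those called were named, together with Hspa1a, Hspa1b, Hspb1, Hsf1 and the 5 loci most like the members; some items that this rule names are not reported here. Members and lists were chosen with earlier results of these data known. Motif and seed matches were located in RefSeq promoters and GENCODE M21 transcripts. The sources do not state separate cultures, so the spread between samples may be technical.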

Additional observations from a re-analysis of the deposited data

How the results depend on the processing

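The count of members lower in nuclear samples over the 3 treatments was 6 to 8 (7 as reported) under every alternative run. In a single treatment the count for Scr went from 4 to 2 without whole cell miR-92b sample 3 and nuclear Scr samples 2 and 3, and to 2 without the samples numbered 1, both chosen after seeing the data. That for miR-92b went from 5 to 3 in a model of only the groups compared, and leaving out each sample gave 3 to 5, with 3 without whole cell miR-92b sample 3. When samples were given equal medians, the all-locus median log2 fold change in control went from 0.06 to 0.18, and with FPKM 1389 loci were higher and 2515 lower over the 3 treatments. No member was called in any miR-92b or Scr comparison under any alternative, although DESeq2 called 176 loci with miR-92b against Scr in whole cells and limma 1. Without nuclear Scr sample 1, limma called 49 loci with miR-92b against Scr and 69 with Scr against control in nuclear samples, against 0 each with all samples. Over all loci, deviations from the group means hardly correlated between samples of the same number (1 of 45 pairs above 0.1, median 0.00219). These pairs include pairs across compartments. They cannot show whether the number orders the nuclear samples, where those numbered 1 were highest for 4 members and 3.04% of all loci. With the replicate block the counts of members called were again 7, 6, 4 and 5 (3 treatments, control, Scr, miR-92b).

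Signs turned for values that were not called, and the cause was not tested. Hspa9 over the 3 treatments was 0.037 with equal medians. With miR-92b against Scr in nuclear samples, FPKM gave -0.18 for Hsp90aa1 and 0.057 for Dnaja1, and sample weights gave -0.33 for Hsp90aa1, 0.082 for Dnaja1 and -0.44 for Hsph1. Without whole cell miR-92b sample 3 and nuclear Scr samples 2 and 3, Hspe1 was -0.15, Hsp90aa1 -0.46, Dnaja1 0.41, Hsph1 -0.67, Dnajb1 -0.23 and Hspa8 0.035. Hsp90aa1 was -0.0019 without the samples numbered 1. Leaving out each sample gave -0.18 to 0.017 for Hspd1, -0.47 to 0.10 for Hspa4, -0.28 to 0.38 for Hsp90aa1, -0.23 to 0.029 for Hspa9, -0.43 to 0.062 for Dnaja1 and -0.34 to 0.46 for Hsph1.

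In whole cell samples, sample weights gave -0.053 for Hspe1, -0.10 for Hsp90ab1 and -0.018 for Hspa8, and FPKM gave 0.060 for Hspa9 and 0.18 for Dnaja1. Without whole cell miR-92b sample 3 and nuclear Scr samples 2 and 3, Hspe1 was -0.28, Hspd1 -0.0197, Hsp90ab1 -0.25, Dnajb1 -0.060 and Hspa8 -0.25. Without the samples numbered 1, Hspd1 was -0.11 and Hsp90aa1 0.025. Leaving out each sample gave -0.28 to 0.38 for Hspe1, -0.039 to 0.26 for Hspd1, -0.40 to 0.032 for Hsp90aa1, -0.25 to 0.40 for Hsp90ab1, -0.060 to 0.35 for Dnajb1 and -0.25 to 0.81 for Hspa8.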
